A study of Mus musculus with 4 samples.

Results

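The retinoic acid set held 8 mouse genes, named for binding (Crabp1, Crabp2), synthesis (Aldh1a2), degradation (Cyp26a1), uptake of the precursor (Stra6) and reception (Rara, Rarb, Rarg) of retinoic acid. Every probe for gene transcripts that the array files name for 1 of these genes was taken, which gave 12 of the 41174 such probes, and 8 of the 12, from 7 genes, could be tested among 24874 tested probes. RNA from CGR8.8, a line of mouse embryonic stem (ES) cells, was compared with RNA from mouse embryonic fibroblasts (MEFs) and from reprogrammed (induced pluripotent stem, iPS) cells on 4 Agilent whole-genome oligonucleotide arrays of 2 colours, 2 arrays per group. The ES RNA was in the green channel (Cy3) of all 4 arrays, and the red channel (Cy5) held the RNA of MEFs or of iPS cells. ES and iPS cells had been cultured with 1000 IU/ml of leukemia inhibitory factor (LIF), which keeps mouse pluripotent cells undifferentiated. The iPS cells were 1 clone harvested on day 30 after transduction, and the labels name neither the transduced factors nor the cell that was reprogrammed. The MEFs had been passaged several times, and neither their strain nor their embryonic age is given in the sources used here. The labels call the 2 arrays of a group biological replicates without saying whether cultures were separate, so the spread behind the p-values is that among these 4 arrays and may hold little variation between cultures.

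Retinoic acid is made from vitamin A (retinol) in steps: STRA6 takes up retinol at the cell membrane, retinol dehydrogenases oxidise it to retinal, and retinal dehydrogenases such as ALDH1A2 oxidise retinal to retinoic acid. Inside the cell, CRABP1 and CRABP2 bind retinoic acid, CRABP2 being known for handing it to nuclear receptors, and CYP26 enzymes of the cytochrome P450 family break it down. The receptors RARα, RARβ and RARγ pair with retinoid X receptors (RXRs) on response elements, often a direct repeat of a short half-site with a 5-base spacer (called DR5), and Rarb and Cyp26a1 are textbook targets of such elements. In cultures of mouse ES cells, added retinoic acid is a widely used inducer of differentiation.

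The promoters of Rarb and Cyp26a1 are shown because each held a DR5 motif, and the 2 genes differed in direction in MEFs. Each run below is the 250 bases before the RefSeq start site in build GRCm38.p6, 5′ to 3′ on the gene's strand, with the motif in capitals; Rarb lies at chr14:16575477-16575726 on the minus strand and Cyp26a1 at chr19:37697558-37697807 on the plus strand.
Rarb: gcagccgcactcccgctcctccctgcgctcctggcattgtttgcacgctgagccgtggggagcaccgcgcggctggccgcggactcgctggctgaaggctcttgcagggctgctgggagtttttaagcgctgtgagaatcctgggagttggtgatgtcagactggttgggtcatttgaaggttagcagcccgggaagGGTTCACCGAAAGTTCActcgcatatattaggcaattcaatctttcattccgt
Cyp26a1: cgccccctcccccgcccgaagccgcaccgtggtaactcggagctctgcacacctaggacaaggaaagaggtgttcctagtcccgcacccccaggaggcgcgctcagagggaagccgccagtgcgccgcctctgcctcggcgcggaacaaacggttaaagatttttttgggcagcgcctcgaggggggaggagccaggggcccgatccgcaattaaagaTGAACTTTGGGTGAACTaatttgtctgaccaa
The Rarb motif reads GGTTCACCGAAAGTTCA on the gene's strand and ends 36 bases before the start. The Cyp26a1 motif reads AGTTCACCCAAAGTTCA on the opposite strand, and 15 bases separate it from the start. Counted from the 5′ end of the Rarb motif, the 17-base runs differ by G1A and G9C, so the second half-site is the same in both. The search allowed the half-site AGGTCA, and in its place AGTTCA or also GGGTCA or also GGTTCA, in direct repeat with a 5-base spacer, on both strands of windows from 250 bases before to 50 bases after a start. Of the 8 members, 7 had a promoter in the RefSeq table (14 windows), and DR5 was found in those 2 genes. Over the table, 31 of 27025 genes (0.115%, from 32851 windows) held it. Of 43 other retinoid pathway genes with a promoter there, 0 held DR5. Rarb and Cyp26a1 were known targets of such elements beforehand, so these counts are no test of the set. A match describes letters in a window and shows no binding.

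The probes that read the strongest changes of the set are those of Crabp1 and Cyp26a1, both 60 bases long, given here as the array files print them with mm8 positions chr9:54566522-54566581 and chr19:37766220-37766279.
Crabp1 probe: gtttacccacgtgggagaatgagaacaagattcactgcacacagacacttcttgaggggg
Cyp26a1 probe: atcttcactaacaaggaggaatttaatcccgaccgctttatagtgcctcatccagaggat

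Between 61.1% and 63.4% of probes were well above background in each channel, and replicate arrays correlated across tested probes at r = 0.99 in both groups (genes are not independent replicates). The growth and treatment notes for the red channel of the MEF arrays mention iPS cells, whereas the title, RNA source and cell type of those arrays name MEFs, which set the group here. The labels were checked against marker genes. All 5 pluripotency markers (such as Pou5f1, Nanog and Sox2) fell in MEFs, whereas in iPS cells 3 rose over ES cells, 1 fell and 1 was not called. All 5 fibroblast markers (such as Col1a1 and Thy1) rose in MEFs, and 4 of 5 fell in iPS cells. Among markers of other cells in MEFs, 2 of 4 macrophage markers rose (Adgre1 by 1.36 and Lyz2 by 4.88 on the log2 scale), as did 1 of 3 tested endothelial markers (Emcn, 5.07; Cdh5 was not well above background); in iPS cells 0 of 4 and 2 of 3 rose (Pecam1, 2.09; Tek, 1.02). All 4 epithelial markers fell in both. Of 4 tested primitive endoderm markers, 1 rose and 2 fell in MEFs and 1 fell in iPS cells, and of 4 neural markers 1 fell in MEFs and 2 fell in iPS cells (lowest log2 ratios -1.98 and -2.33 for endoderm, -3.20 and -3.66 for neural markers). These marker changes went with the same contrasts as the member genes, and their part in the results was not tested. Dyes were not swapped, so in ratios over ES cells a dye effect of a probe and a true difference cannot be told apart; it cancels between iPS cells and MEFs. The 4 arrays shared 1 slide and 1 scan, so position on the slide and group cannot be told apart.

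Retinoic acid genes moved in different directions in MEFs: Crabp1, Rarb and Aldh1a2 rose over ES cells, and Cyp26a1 and Stra6 fell. In iPS cells Aldh1a2, Cyp26a1 and Stra6 fell, and 0 of the 8 tested probes rose. A probe is called here at a limma adjusted p under 0.05 (Benjamini-Hochberg over all tested probes) with at least a 2-fold difference. By that rule 5 of 8 tested member probes were called in MEFs over ES cells (3 up, 2 down), where 25.2% of all tested probes were (12.8% up and 12.4% down). In iPS over ES cells 3 of 8 were called, all down, against 18.7% of all tested probes (8.0% up, 10.7% down). Between iPS cells and MEFs 5 of 8 were called, 1 higher and 4 lower in iPS cells, against 33.1% overall (15.4% higher, 17.7% lower). In these bulk samples, fewer cells of a type and less RNA per cell cannot be told apart.

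**Figure D1:**
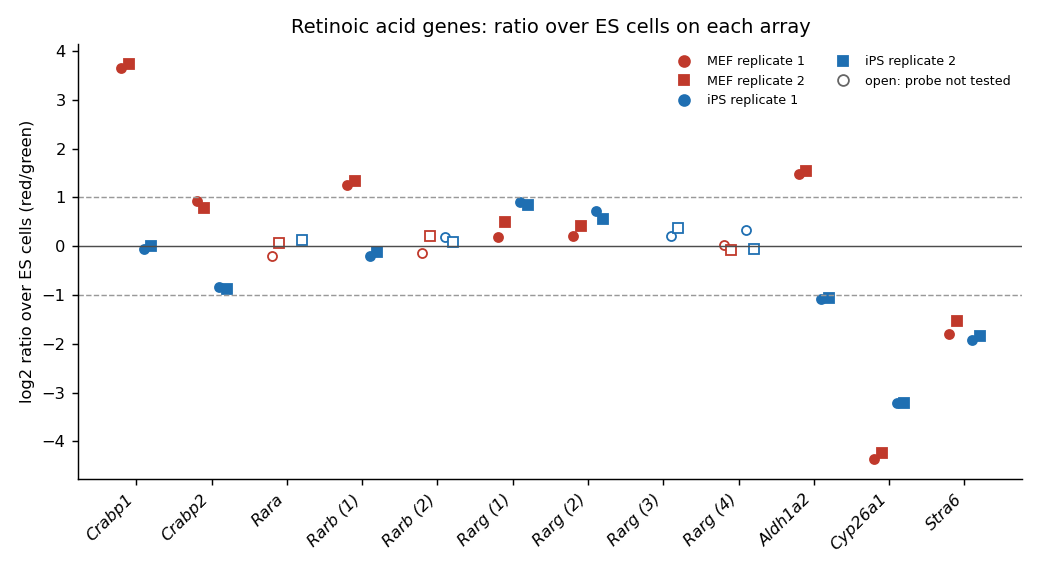
Log2 ratio over ES cells (y axis) of each of the 12 member probes (x axis, numbered where a gene has several) on the 2 MEF arrays (red) and 2 iPS arrays (blue); circles are replicate 1, squares replicate 2, open symbols probes that were not tested, dashed lines the 2-fold limit. Replicates of the tested probes lie close together, Crabp1 is high on MEF arrays only (3.65 and 3.74), and Cyp26a1 and Stra6 lie below the lower line on all 4 arrays. Replicates of some untested probes lie on opposite sides of 0, such as Rara in MEFs (-0.20 and 0.06).

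**Figure D2:**
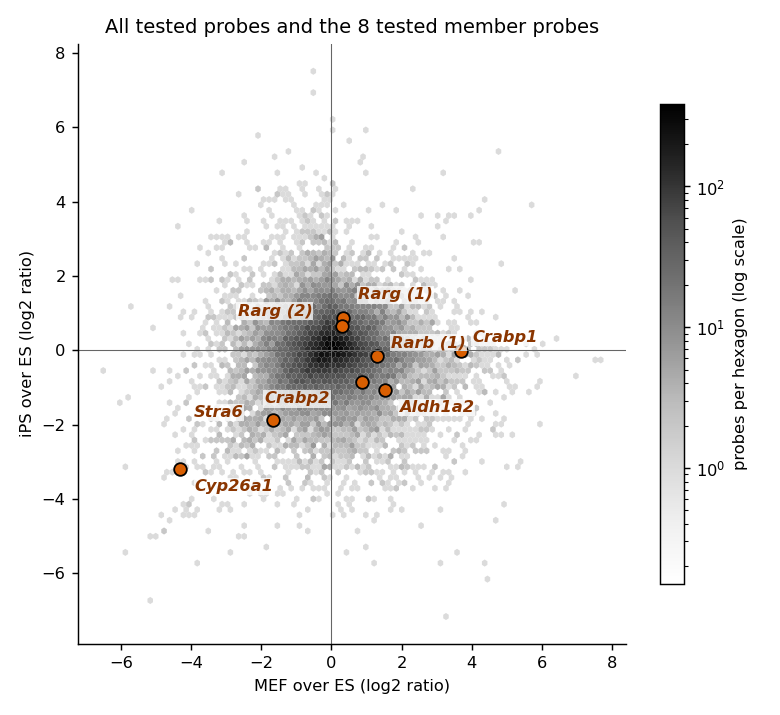
MEF over ES (x axis) against iPS over ES (y axis), both as log2 ratios from the fit, for all 24874 tested probes (grey hexagons, shaded by the number of probes on a log scale) and the 8 tested member probes (orange). Cyp26a1 lies at the lower left (-4.30 and -3.21), Crabp1 far right near 0 on the y axis (3.69 and -0.03); both axes share the ES reference.

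Crabp1, which binds retinoic acid in the cytosol, was the member that rose most in MEFs. Its log2 ratio over ES cells was 3.65 and 3.74 on the MEF arrays and -0.06 and 0.00 on the iPS arrays. MEFs thus stood clear of ES cells, and the iPS clone lay at the ES level. The scanned red mean intensity was 5770 and 5260 in MEFs and 246 and 269 in iPS cells, all well above background. The fit gave 3.69 ± 0.051 (SE, n = 2 arrays) for MEFs over ES cells, a 12.9-fold rise (limma adjusted p = 4.48e-09). iPS cells did not differ from ES cells by the test (log2 ratio -0.03, limma adjusted p = 0.613), with a 95% interval of the difference from -0.15 to 0.09, and were 13.2-fold lower than MEFs. The sign of the small iPS value turned under median centring (0.14) and with the scanner software's ratio (0.03). The green level of ES RNA was not even for this probe. Its normalized log2 level was 8.36 and 8.39 on the arrays shared with MEFs and 8.01 and 7.99 on those shared with iPS cells. The labels do not say whether the ES RNA on the 4 arrays came from separate cultures. That range of 0.40 compares with a median range of 0.14 and a 95th percentile of 0.31 over all tested probes. The part of this unevenness in the Crabp1 ratios was not tested.

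Crabp2, the carrier that delivers retinoic acid to receptors, lay above ES cells in MEFs, by less than 2-fold, and below them in iPS cells, where its spot gave only a bound. Its probe is at chr3:88034687-88034746 (mm8). The log2 ratios were 0.93 and 0.78 on MEF arrays and -0.83 and -0.87 on iPS arrays, so the groups lay on opposite sides of ES cells. In MEFs over ES cells the fit gave 0.86 ± 0.054 (1.81-fold, limma adjusted p = 3.68e-06), which missed the fold limit. The red spot was not well above background on either iPS array (mean intensity 64.6 and 71.9 over a local background of 52 and 54.5), so in iPS cells there is only a bound: at least 1.75-fold lower than ES cells and at least 3.15-fold lower than MEFs, the latter called (limma adjusted p = 6.77e-07). Bounds like these take the normalized log2 mean per channel of the bright group over, on each dim array, the higher of the lowest signal well above background and the probe's own, and are open to dye bias. In MEFs over ES cells, Crabp2 passed 2-fold at a normexp offset of 10 (1.15), with the scanner software's ratio (1.33) and under median centring (1.03). In iPS over ES cells, the fitted value, which gives no exact size for so dim a spot, was -0.85 and passed 2-fold with no background subtraction (-1.10), at the offset of 10 (-1.49) and with the software's ratio (-2.61).

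Stra6, the membrane receptor that takes up retinol, fell in both MEFs and iPS cells. Its probe spans 612 bases of the genome at chr9:57950709-57951320 (mm8), more than its length, so it crosses an intron. Log2 ratios over ES cells were -1.81 and -1.54 on MEF arrays and -1.93 and -1.85 on iPS arrays. The 4 values lay well below 0, and the MEF values lay above both iPS values. MEFs were 3.19-fold lower than ES cells (-1.67 ± 0.070, limma adjusted p = 3.98e-07) and iPS cells 3.70-fold lower (-1.89 ± 0.070, limma adjusted p = 2.95e-07). The difference between iPS cells and MEFs did not pass the test (-0.21 ± 0.099, limma adjusted p = 0.0814), with a 95% interval from -0.45 to 0.02. All spots were bright, with red mean intensities of 648 and 627 in MEFs and 507 and 508 in iPS cells.

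Aldh1a2, the retinal dehydrogenase best known for making retinoic acid in the embryo, rose in MEFs and fell in iPS cells. Its probe lies at chr9:71094684-71094743 (mm8). The log2 ratio was 1.49 and 1.55 on MEF arrays and -1.07 on both iPS arrays, so ES cells stood between the others. MEFs were 2.86-fold higher than ES cells (1.52 ± 0.047, limma adjusted p = 9.45e-08). iPS cells were 2.10-fold lower than ES cells (-1.07 ± 0.047, limma adjusted p = 7.22e-07) and 6.02-fold lower than MEFs (-2.59 ± 0.067). The iPS call over ES cells sits at the fold limit: under median centring the value was -0.89 and the call was lost.

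Cyp26a1, the P450 enzyme that clears retinoic acid, fell most of all members, in MEFs and in iPS cells. Log2 ratios over ES cells were -4.36 and -4.24 on MEF arrays and -3.21 on both iPS arrays. The groups did not overlap, and the order was ES cells, then iPS cells, then MEFs. Scanned red mean intensities were 92 and 86.7 in MEFs, over a local background of 51 and 54, and 178 and 196 in iPS cells, against green intensities of ES RNA between 1290 and 1370. The fit gave -4.30 ± 0.051 for MEFs over ES cells, a 19.7-fold fall (limma adjusted p = 3.74e-09), and -3.21 ± 0.051 for iPS over ES cells, a 9.24-fold fall (limma adjusted p = 8.24e-09). iPS cells were 2.14-fold higher than MEFs (1.10 ± 0.072, limma adjusted p = 5.37e-06). The MEF fold depended on how background was handled for its dim red spot: it was 60.3-fold with the scanner software's ratio, where iPS cells were 4.79-fold higher than MEFs.

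**Figure D3:**
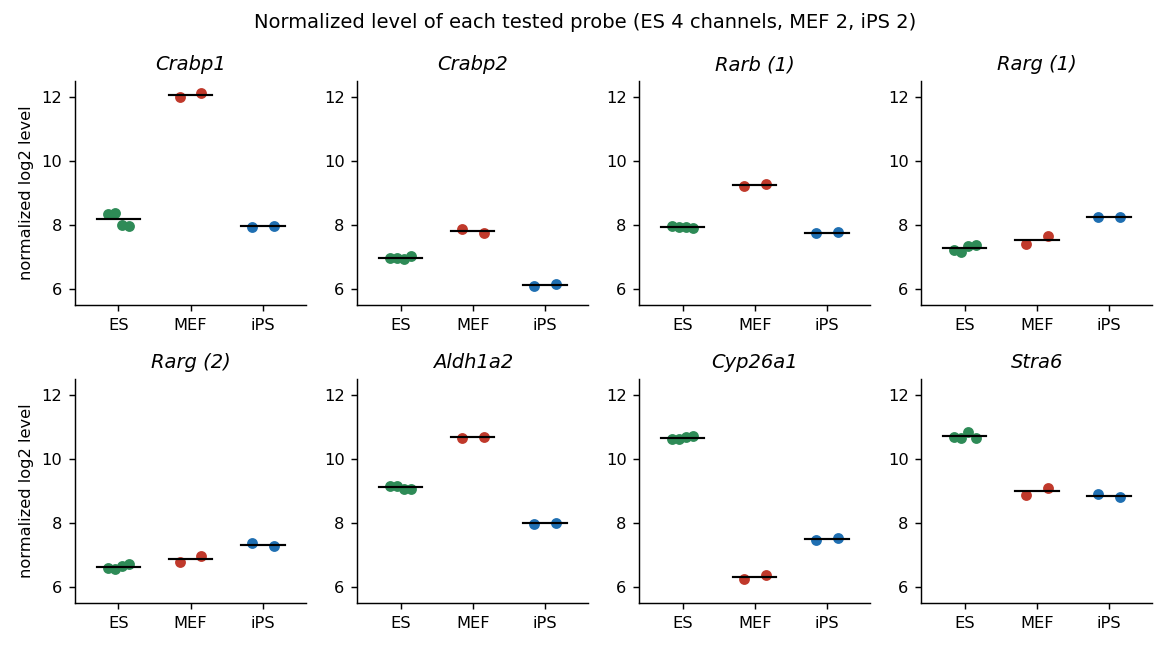
Normalized log2 level per channel (y axis, loess then Aquantile) of the 8 tested member probes in ES cells (green, 4 channels), MEFs (red, 2) and iPS cells (blue, 2); black bars are means, points single channels, and levels of different probes are not comparable. Crabp1 splits in ES cells between 8.36 and 8.39 on MEF arrays and 8.01 and 7.99 on iPS arrays, Cyp26a1 steps down from ES to iPS cells to MEFs, and Rarb lies higher in MEFs than in ES or iPS cells.

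Rarb, the receptor gene that retinoic acid itself is known to switch on, rose in MEFs and stayed under 2-fold in iPS cells. Its tested probe (chr14:15224264-15224323, mm8) was printed 10 times per array. Log2 ratios averaged over spots were 1.25 and 1.33 on MEF arrays and -0.20 and -0.12 on iPS arrays. On the MEF arrays 9 unmarked spots each ran from 1.18 to 1.36 (SD 0.057) and from 1.28 to 1.40 (SD 0.034). On the iPS arrays the 10 spots ran from -0.38 to -0.06 (SD 0.093) and from -0.17 to -0.02 (SD 0.051). No MEF spot reached down to an iPS spot, and these repeats show technical spread within an array only. MEFs were 2.44-fold higher than ES cells (1.29 ± 0.051, limma adjusted p = 2.97e-07) and iPS cells 2.73-fold lower than MEFs (-1.45 ± 0.072, limma adjusted p = 1.15e-06). iPS over ES cells gave -0.16 (limma adjusted p = 0.0234), under 2-fold, and 0.0014 under median centring. A second Rarb probe, for the β4 isoform (chr14:15341785-15368493, mm8, across introns), was not well above background in any RNA and was not tested.

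**Figure D4:**
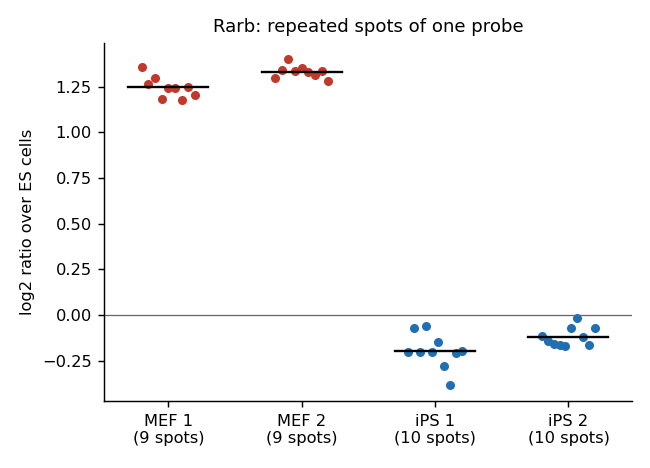
Log2 ratio over ES cells (y axis) of each unmarked spot of the Rarb probe that was printed 10 times, by array (x axis; 9 spots on each MEF array in red, 10 on each iPS array in blue), with black bars at the array means. MEF spots lie between 1.18 and 1.40 and iPS spots between -0.38 and -0.02.

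Rarg, the receptor that mouse ES cells are known to express along with Rara, lay somewhat above ES cells in both groups without passing 2-fold. At its probe chr15:102063912-102063971 (mm8), log2 ratios were 0.19 and 0.49 on MEF arrays and 0.91 and 0.85 on iPS arrays. At the probe crossing an intron (chr15:102064224-102066864, mm8) they were 0.20 and 0.42, then 0.72 and 0.56. Both probes gave positive values on all 4 arrays, with the iPS values above the MEF values. iPS over ES cells gave 0.88 ± 0.073 (limma adjusted p = 2.19e-05) and 0.64 ± 0.068 (limma adjusted p = 8.75e-05), and MEFs over ES cells 0.34 and 0.31. The first probe passed 2-fold in iPS cells with no background subtraction (1.06), at an offset of 10 (1.10), under median centring (1.04) and with the scanner software's ratio (1.44), and the second with the software's ratio alone (1.52). Of the other Rarg probes, both from a γ3 mRNA (chr15:102070014-102070073 and chr15:102070108-102070167, mm8), 1 was marked as a background outlier on both MEF arrays and 1 was bright on a single iPS array, so neither was tested. With background outliers kept, the marked probe gave 0.03 in MEFs (limma adjusted p = 0.607) and 0.28 in iPS cells (limma adjusted p = 0.00283).

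Rara, the most broadly expressed of the receptor genes, had a single probe (chr11:98786635-98786694, mm8), marked as a background outlier on the array of iPS replicate 1 and therefore not tested. Its log2 ratios were -0.20 and 0.06 on MEF arrays and 0.12 on the array of iPS replicate 2. Its signal was low in every RNA, with red mean intensities from 82.7 to 95 over local backgrounds from 45 to 53, all called well above background by the scanner software. With background outliers kept, iPS replicate 1 gave 0.25, and the fit over 27701 probes gave -0.07 for MEFs over ES cells (limma adjusted p = 0.415), 0.19 for iPS over ES cells (limma adjusted p = 0.0472) and 0.25 between iPS cells and MEFs (limma adjusted p = 0.0532). Each is under 2-fold.

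Around the members, 63 other genes of retinoid handling and response were listed in 6 groups by role, and 55 were tested, each at its brightest probe. In MEFs over ES cells 18 rose, 9 fell and 28 were not called, with a median log2 ratio of 0.48, where 27.4% of all 17620 tested genes were called (13.8% up, 13.6% down) and the median was -0.01. Under median centring the split was 24 up and 7 down. In iPS over ES cells 5 rose, 14 fell and 36 were not called (median -0.27), against 20.9% of all genes (9.08% up, 11.8% down) and a median of 0.0066; under median centring the split was 5 up and 9 down. Between iPS cells and MEFs 6 were higher, 24 lower and 25 not called in iPS cells (median -0.57), against 35.8% (17.0% higher, 18.8% lower) and a median of 0.03. The lists share no independent chance test, and they were drawn up with earlier results of these data known. The shares over all genes given here also stand against the counts by group below.

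Among the other carriers of retinoids, 0 of 4 rose and 1 fell in MEFs. Rbp7, a retinol-binding protein, had log2 ratios of -2.40 and -2.37 in MEFs, where it was not well above background, so it was at least 5.16-fold lower; its other probe gave -0.77. Of 4 tested genes of uptake, storage and transport, Scarb1, a scavenger receptor that takes up carotenoids and lipoprotein cholesterol, rose in MEFs (1.53) and in iPS cells (1.18), and the other 3 were not called in either.

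Of 15 tested genes that interconvert retinol, retinal and retinoic acid, 5 rose and 3 fell in MEFs and 1 rose and 4 fell in iPS cells. Rdh10, the main retinol dehydrogenase of the embryo, had log2 ratios of -2.86 and -2.95 in MEFs and -4.12 and -4.14 in iPS cells, 7.50-fold and 17.5-fold below ES cells; its other probe gave -1.98 and -3.38. Aldh1a3, another retinal dehydrogenase, fell 5.86-fold in MEFs (-2.62 and -2.48) and, being not well above background in iPS cells, was at least 16.8-fold lower there. So Aldh1a3 was below ES cells in both groups, whereas Aldh1a2 was above them in MEFs. In the clearance group Cyp26b1, a second degrading enzyme, rose 13.2-fold in MEFs (3.79 and 3.64) and gave -0.47 in iPS cells, under 2-fold. The 2 CYP26 genes thus went opposite ways in MEFs, Cyp26a1 down and Cyp26b1 up.

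Of 10 tested RXRs and coregulators, 2 rose and 1 fell in MEFs, and 1 rose and 1 fell in iPS cells. Rxra rose in MEFs at its brightest probe (1.35 and 1.36), but its other probe gave 0.10 there and 1.51 in iPS cells, where the brightest probe gave -0.20, so its probes disagree. Rxrg, the most restricted RXR, gave -1.18 and -1.13 in MEFs (-0.96 under median centring, where the call was lost) and -1.90 and -1.96 in iPS cells. Ncoa3, a coactivator, rose in iPS cells (2.02; other probes 0.71 and 1.92).

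Among 21 tested genes known to respond to retinoic acid, 9 rose and 4 fell in MEFs, and 2 rose and 8 fell in iPS cells. Over all tested genes 13.8% rose and 13.6% fell in MEFs, and 9.08% rose and 11.8% fell in iPS cells. Whether retinoic acid had a part in these changes was not tested. Nr2f2, an orphan nuclear receptor, rose 27.1-fold in MEFs (4.70 and 4.82; other probe 3.64) and gave -0.16 in iPS cells. Stra8, the germ-cell gene induced by retinoic acid before meiosis, rose 32.6-fold in iPS cells (4.91 and 5.14) and fell 5.60-fold in MEFs. Tfap2c, a transcription factor of germ cells and trophoblast, did likewise, with 2.56 in iPS cells and -3.51 in MEFs. Plat, tissue plasminogen activator, fell in iPS cells (-3.14 and -3.25), where its other probes ran from -1.69 to -0.12, and rose in MEFs (1.94), where they ran from 0.32 to 1.24.

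**Figure D5:**
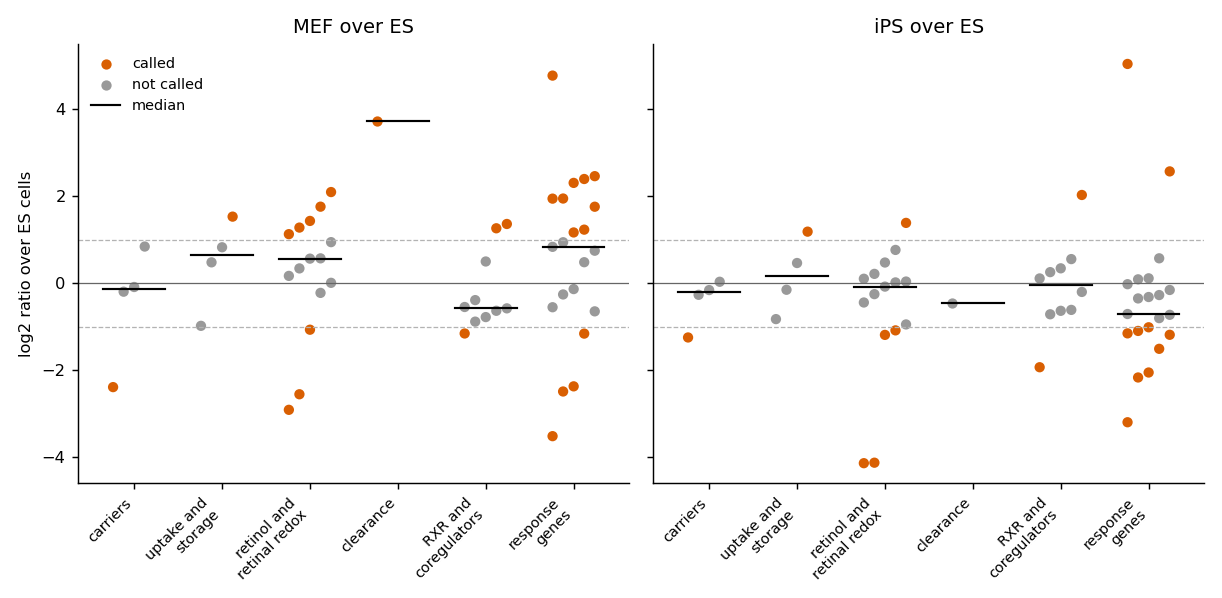
Fitted log2 ratio over ES cells (y axis) of 55 tested retinoid genes in 6 groups by role (x axis), for MEFs (left) and iPS cells (right); each point is a gene at its brightest probe, orange if called and grey if not, black bars are group medians, dashed lines the 2-fold limit. For genes below background in a group the point is the fit, not the bound. Response genes have a median above 0 in MEFs (0.83) and below 0 in iPS cells (-0.71), against -0.01 and 0.0066 over all tested genes. The lists were drawn up with earlier results of these data known.

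The 3 genes whose log2 ratios over the 4 arrays lay nearest to those of Cyp26a1, by Euclidean distance, were Pcsk1 (a prohormone convertase, 0.30), Hunk (a kinase, 0.31) and Crb3 (an apical polarity protein, 0.33). Pcsk1 had ratios of -4.34 and -4.43 in MEFs and -3.05 and -3.04 in iPS cells. These distances hold for the main processing. Over the alternatives the fitted value in MEFs over ES cells went as low as -6.94 for Pcsk1, -7.34 for Crb3, -4.38 for Hunk and -5.91 for Cyp26a1.

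Calls of members in MEFs were lost when normexp was fitted with the spots that the scanner software marked. Calls were also made without that model. With no background subtraction 5 of 8 member probes were called in MEFs over ES cells, against 29.5% of all tested probes. With the software's ratio 6 of 8 were called, against 41.6% of all tested probes. On the array of MEF replicate 1, 14 spots had a local background above 500, all of them marked. The highest local background was 694663 there, against 75.5 on MEF replicate 2, 78.5 on iPS replicate 1 and 78 on iPS replicate 2. With normexp fitted over all spots the SD of log2 ratios over tested probes on the MEF replicate 1 array was 0.33, against 1.07 without marked spots. Crabp1 was then 0.42 and Cyp26a1 -0.16 on that array, 0 of 8 member probes were called by limma in MEFs over ES cells (0 also at an unadjusted p under 0.05), and iPS over MEF for Cyp26a1 turned to -1.01. With the array of MEF replicate 1 left out altogether, the log2 ratio in MEFs over ES cells was 3.74 for Crabp1 and -4.24 for Cyp26a1.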

How the data were processed

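Arrays were read with Agilent Feature Extraction 10.5.1.1, per the file headers. The deposited files give mean spot intensity and median local background intensity per channel, not normalized, and a log10 ratio of red over green that the authors' scanner software made from background-subtracted, dye-normalized signals (LOWESS factor 0.25, per the file headers). The series' deposited value table was identical to that log10 ratio and was used as an alternative. RNA (1 µg each) was labelled with an Agilent kit, per the labels' protocols. Probe coordinates are those of mm8 as deposited; exon or UTR annotation on that build was not used here.

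Mean intensities of unmarked spots were background-corrected with normexp (offset 50) in limma 3.58.1 (R 4.3.3) and normalized by loess (span 0.3, controls given no weight). Controls, and spots flagged by the scanner software as non-uniform or population outliers in signal or background, were left out, and spots of a probe were averaged. Probes well above background in at least 1 RNA on all its arrays, with a value on 4 arrays, were tested with lmFit and eBayes: 1 coefficient per group, 2 residual and 4.91 prior degrees of freedom, 3 contrasts. The ratio against 0 leaves out the spread of ES cells beyond that between these arrays. Errors are standard errors of coefficients; the number of arrays limits precision. The fit was tested on simulated data.

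The members and the lists were chosen with earlier results of these data known, as was fitting normexp on unmarked spots. Named genes were all members and, per list, the 2 with the largest called difference in each ratio over ES cells; some genes that this rule picks are not reported here. Alternatives covered background, scaling, marked spots, filters, probes per gene, an intensity trend, a replicate block and leaving out each array; an offset of 10 and crossed replicate numbers were added after seeing the data. Probes were named through RefSeq accessions (24375 probes) or by the array file. Same-numbered arrays showed a correlation of -0.11 in their deviations. With 2 arrays per group the other pairing is its mirror, so this cannot tell whether the numbers pair the arrays.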

Additional observations from a re-analysis of the deposited data

Results flagged for a closer look

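In 5 members the ratio over ES cells differed between iPS cells and MEFs by the test of that difference (limma, called at an adjusted p under 0.05 and 2-fold). By the same rule 33.1% of all tested probes were called, so such a difference was common on these arrays. The log2 difference, iPS cells minus MEFs, was -3.72 for Crabp1, -1.45 for Rarb and -2.59 for Aldh1a2, all lower in iPS cells, and 1.10 for Cyp26a1, higher in iPS cells. Crabp2, not well above background in iPS cells, was at least 3.15-fold lower there than in MEFs, and its fitted difference of -1.71 gives no exact size. Aldh1a2, Crabp2 and Rarb lay above ES cells on both MEF arrays and below them on both iPS arrays. For Rarb the iPS values were small (-0.20 and -0.12). The share of all tested probes with such opposite directions was not counted.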

How the results depend on the processing

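The member counts of 5, 3 and 5 calls (MEFs over ES, iPS over ES, iPS over MEF) were the same when any 1 array was left out. Over those fits, all called probes numbered 6229 to 6410 in MEFs over ES cells, 4609 to 4723 in iPS over ES cells and 8210 to 8297 in iPS cells over MEFs, and retinoid pathway genes 27 to 28, 18 to 19 and 29 to 31. With normexp fitted over all spots, 0 probes were called in MEFs over ES cells by limma (2392 at an unadjusted p under 0.05), 0 members (0 unadjusted) and 0 pathway genes (10 unadjusted). In iPS over ES cells 3292 probes (13.2% of those tested), 1 of 8 member probes and 10 pathway genes were called. In iPS cells over MEFs 2644 probes (10.6%), 0 members (2 unadjusted) and 11 pathway genes were called. With marked spots kept the same counts were 200, 0 and 0, then 3702, 1 and 10, then 3086, 0 and 11, among 27725 tested probes and 10 member probes. With normexp over all spots the scale of the MEF replicate 1 array moved (SD of log2 ratios 0.33 against 1.07). The setting with marked spots kept also fitted normexp over all spots, so it is not a separate check. In MEFs over ES cells it gave -2.20 for Cyp26a1, against -2.19 with normexp over all spots. The cause of the lost calls with marked spots kept was not tested. In iPS cells over MEFs both settings turned Cyp26a1 (-1.01), Scarb1 (0.26), Pcsk1 (-0.76), Hunk (-0.44) and Crb3 (-0.91). The scanner software's ratio called 10354, 8405 and 12486 probes. In iPS over ES cells it called 6 of 8 member probes, against 33.8% of all tested probes. Without background subtraction and at an offset of 10 that member count was 5, against 22.2% and 24.9% of all tested probes. Median centring moved the median of all tested probes from -0.01 to 0.16 in MEFs and to 0.14 in iPS cells, and the split of called probes from 3174 up and 3095 down to 4716 and 2022 in MEFs over ES cells and from 1989 and 2663 to 3225 and 2022 in iPS over ES cells. It turned, in iPS over ES cells, Crabp1 (0.14), Rarb (0.0014), Rbp7 (0.020) and Rxra (0.072), none of them called. Other turns in iPS over ES cells were Crabp1 with the software's ratio (0.026), and Crabp1 also when 1 array was left out (-0.061 to 0.0018) and Rxra averaged over its probes (0.66). A replicate block left 6269, 4652 and 8235 calls and changed no member or pathway count, and crossed pairing gave the same 3 counts. Whether the numbers pair the arrays could not be told. Aquantile scaling leaves ratios as they are. Signal over background limits Crabp2 in iPS cells and Cyp26a1 in MEFs.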
